A study of Mus musculus with 22 samples.

Results

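The nuclear genes of mitochondrial respiratory complexes II to V were followed in the brown adipose tissue (BAT) of mice with and without the RNA-binding protein CPEB2. Members were chosen by symbol in the GENCODE annotation, as protein-coding genes named Sdha, Sdhb, Sdhc, Sdhd, Cyc1 or Cycs, or with a symbol that begins with Uqcr, Atp5 or Cox4 through Cox8. This gave 50 of the 55487 gene identifiers in the count tables, under 49 symbols, because Atp5o has a second identifier. Of these, 4 belonged to complex II, 9 to complex III, 18 to complex IV and 18 to complex V, and the last was Cycs, the mobile electron carrier cytochrome c. A further 8 pseudogene entries with such symbols were left out. The symbol rule also took in Cox7a2l, a scaffold that joins complexes III and IV, and Atp5s, a coupling factor of the ATP synthase.

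Complex II (succinate dehydrogenase) passes electrons from succinate to ubiquinone, complex III (the cytochrome bc1 complex) passes them on to cytochrome c, and complex IV (cytochrome c oxidase) passes them to oxygen. Complexes III and IV pump protons, and complex V (the ATP synthase) lets protons back to make ATP. Brown adipocytes are packed with mitochondria in which UCP1 short-circuits the proton gradient to make heat, and their ATP synthase is known to be scarce relative to the electron transport chain. Complexes III, IV and V combine subunits of the nuclear and the mitochondrial genome, whereas all subunits of complex II are nuclear. Several complex IV subunits come as pairs of isoforms, of which Cox7a1, Cox8b and Cox6a2 are the forms of heart and skeletal muscle, with Cox7a1 and Cox8b also known as marks of brown fat.

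Interscapular BAT from 22 C57BL/6 mice labelled male was sequenced, 1 library a mouse, in 6 groups. WT and KO were littermates of heterozygous crosses, the KO lacked CPEB2 in every tissue and not in fat alone, and 5 untreated mice of each genotype were taken at 21 to 25 weeks of age after several hours without food. In a second cohort, mice of both genotypes were given an adeno-associated virus (AAV, serotype 2/8) into the BAT at 16 weeks of age, 20000000000 vector genomes in 30 µl at 10 µl a site, and tissue was taken 9 weeks later. The virus carried flag-tagged PRDM16, a transcriptional regulator of brown fat identity, or GFP, with 3 mice for each genotype and virus (called WT + AAV-GFP, KO + AAV-GFP, WT + AAV-PRDM16 and KO + AAV-PRDM16). The groups were compared to ask how loss of CPEB2 changes the BAT transcriptome and whether added PRDM16 alters it. The p-values below set the difference between groups against the spread between mice within groups.

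Libraries held 55320927 to 162721202 counts in the untreated cohort and 61636889 to 143005309 in the AAV cohort. The nuclear members took 1.90 to 4.58% and 1.74 to 2.17% of them, and the mitochondrial genome took 24.6 to 38.9% and 29.6 to 36.9%. Cpeb2 averaged 12.4 CPM (counts scaled to library size, with TMM factors) under AAV-GFP and 12.2 CPM under AAV-PRDM16 in WT, 5.49 and 4.82 CPM in KO, and fell by 1.26 on the log2 scale over both viruses (FDR 4.49e-04). In untreated BAT it ran from 7.69 to 14.3 CPM in WT and from 2.10 to 11.7 CPM in KO, where KO mouse 1 at the top lay inside the WT range, so the untreated KO group is named by its label. Prdm16 averaged 33.3 and 32.7 CPM under AAV-GFP and 95.6 and 90.2 CPM under AAV-PRDM16 in WT and KO. Transcripts of the Y chromosome were under 10 CPM in 6 of the 10 untreated libraries, 2 WT and 4 KO, although all are labelled male, and they were above that in all 12 AAV libraries. Untreated WT mice 1 and 2 stood apart from the rest, as shown with the values they touch.

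In a whole tissue, fewer cells of a type and less RNA per cell cannot be told apart. Of the 50 members, 46 passed the filter on low counts in the AAV cohort and 47 in the untreated cohort. Cox7b2, Cox8c and the second Atp5o gene were at 0 counts in all 22 libraries, which allows up to 3 counts in each, and Cox6a2 passed only in the untreated cohort. Per kb of transcript, the highest level in WT + AAV-GFP was that of Atp5b, the catalytic beta subunit of complex V, at 2655 ± 24.1 CPM per kb (SD, n = 3). Sdha, the flavoprotein that oxidizes succinate, led complex II at 949 ± 29.4 CPM per kb, and Uqcrc1, a core protein, led complex III at 665 ± 24.5 CPM per kb. In complex IV, Cox6a1 at 888 ± 144 and Cox4i1 at 876 ± 56.4 CPM per kb were level within their spread. Among members that passed, the lowest were Sdhc in complex II at 71.6 ± 5.58 CPM per kb, Uqcrq in complex III at 154 ± 4.98, Cox4i2 in complex IV at 1.24 ± 0.16 and Atp5g1 in complex V at 0.0951 ± 0.0067. The annotated Atp5g1 transcript has 4715 bases, the longest of the members, and lowers that gene's value per kb.

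Over both viruses, 16 of the 46 members tested were lower in KO BAT at an FDR of 0.05, and 0 were higher. DESeq2 called 24 lower (3.97% of all genes) and 0 higher, and limma-voom 25 lower (3.67%) and 0 higher. These 16 were 1 gene of complex II, 4 of complex III, 6 of complex IV and 5 of complex V. Among all 18899 genes tested, 1.12% were lower at that threshold. The falls were modest, from 19.2% by mean CPM for Sdhb to 36.5% for Cox8b, and 44 of 46 members had a log2 fold change below 0, as did 48.4% of all genes. The other members were Cox4i2 and Atp5g1, neither of them called, and Atp5g1 stood at -0.08 without KO + AAV-GFP mouse 3. The median log2 fold change was -0.26 over the members and 0.01 over all genes tested. It was -0.19 in complex II, -0.28 in complex III, -0.31 in complex IV and -0.25 in complex V, and that of Cycs was -0.06. All 6 KO libraries lay below all 6 WT libraries for 13 members, 11 of them among the 16, which 1.58% of all genes did. The test was edgeR's quasi-likelihood test, adjusted by Benjamini-Hochberg over all genes tested, with the average of the differences under each virus as the contrast.

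**Figure D1:**
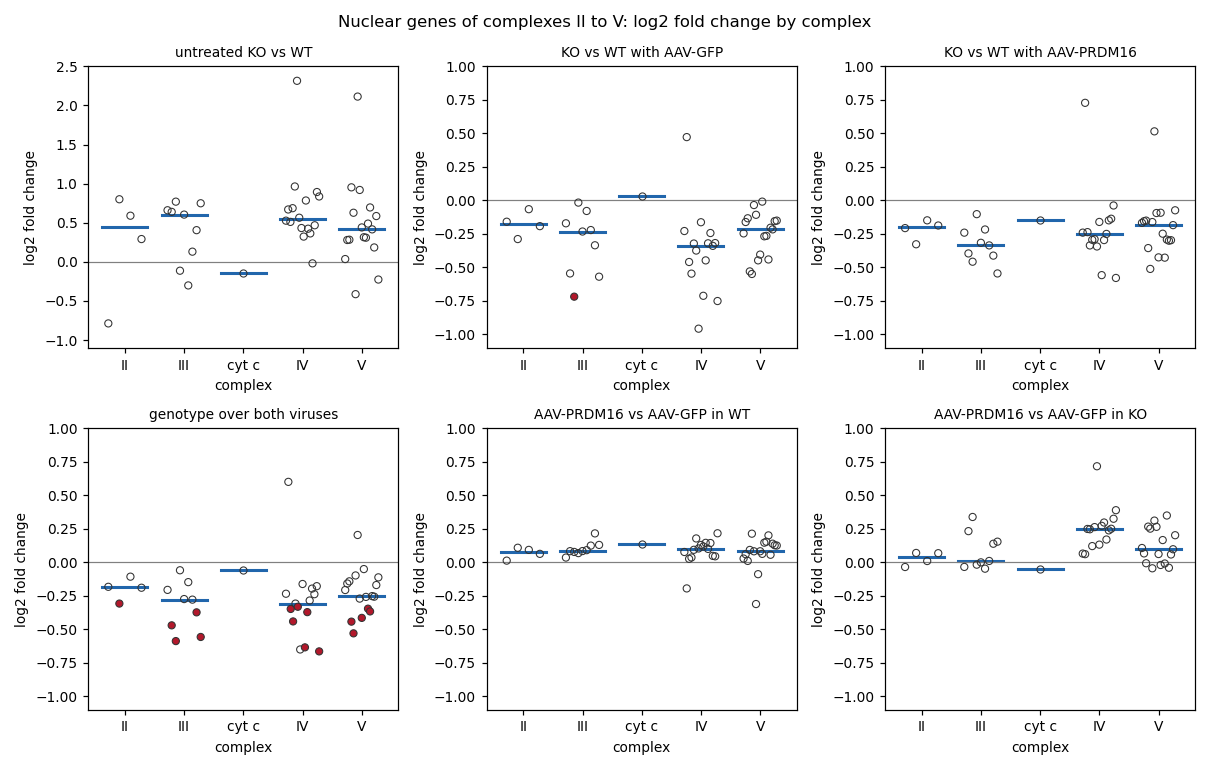
Log2 fold change of each member (vertical axis) by complex (horizontal axis) in 6 comparisons, with a point for each gene, a blue bar at the median of each complex and filled points at an FDR of 0.05 or less. The 16 filled points of the genotype comparison over both viruses lie between -0.66 and -0.31, and the untreated panel has its own, wider axis and no filled point.

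In complex II only Sdhb, the iron-sulfur subunit that hands electrons towards ubiquinone, passed the test, at its edge. Sdhb (ENSMUSG00000009863, chr4:140961203-140979193, GRCm38) was at 481, 438 and 478 CPM in WT + AAV-GFP, with 464, 494 and 548 CPM in WT + AAV-PRDM16, against 381, 391 and 372 CPM in KO + AAV-GFP and 366, 438 and 395 CPM in KO + AAV-PRDM16. A single KO mouse, KO + AAV-PRDM16 mouse 2, reached the lowest WT mouse, and the log2 fold change was -0.31 ± 0.07 (SE, FDR 0.0488). Sdha did not pass at 2765 CPM in WT and 2436 CPM in KO (log2 fold change -0.18, FDR 0.336), and neither did the membrane anchors Sdhc (-0.11, FDR 0.574) and Sdhd (-0.19, FDR 0.291).

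Complex III held the smallest p-value of the members. Uqcr11 (ENSMUSG00000020163, chr10:80402997-80406830), a small accessory subunit, was at 97.1, 107 and 102 CPM in WT + AAV-GFP, with 113, 97.2 and 113 CPM in WT + AAV-PRDM16. In KO + AAV-GFP it was at 55.1, 65.5 and 65.7 CPM, and in KO + AAV-PRDM16 at 75.7, 84.0 and 75.9 CPM. All KO mice lay below all WT mice, and Uqcr11 fell by 33.0% (log2 fold change -0.59 ± 0.07, FDR 0.0059). Uqcrq, another small accessory subunit, was at 226, 241 and 235 CPM and at 258, 236 and 274 CPM in WT under the GFP and PRDM16 viruses, against 144, 165 and 164 CPM and 170, 208 and 148 CPM in KO. These groups also did not overlap (-0.56 ± 0.09, FDR 0.0131). Uqcr10 (-0.47, FDR 0.0145) and the hinge protein Uqcrh (-0.37, FDR 0.0335) fell too. The large core and catalytic proteins of the complex did not pass the test, among them Uqcrc1 (-0.27, FDR 0.0642), Uqcrc2 (-0.15, FDR 0.421) and Cyc1, the cytochrome c1 that docks cytochrome c (504 against 581 CPM, -0.21, FDR 0.160). Uqcrb, with a short transcript of 535 bases, did not pass either (-0.06, FDR 0.823).

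Cycs itself showed no detectable difference, at 538, 555 and 639 CPM in WT + AAV-GFP, with 573, 629 and 697 CPM in WT + AAV-PRDM16, against 709, 586 and 480 CPM in KO + AAV-GFP and 509, 582 and 622 CPM in KO + AAV-PRDM16. The 4 groups overlapped throughout (-0.06 ± 0.10, FDR 0.832).

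In complex IV the deepest falls among the called genes were in the muscle and brown fat isoforms. Cox8b (ENSMUSG00000025488, chr7:140898945-140900446) was at 118, 156 and 120 CPM in WT + AAV-GFP, at 156, 139 and 163 CPM in WT + AAV-PRDM16, at 65.6, 71.6 and 97.0 CPM in KO + AAV-GFP and at 94.0, 94.2 and 118 CPM in KO + AAV-PRDM16. The highest KO mouse met the lowest WT mice, and the log2 fold change was -0.66 ± 0.12 (FDR 0.0189). Cox7a1 (ENSMUSG00000074218, chr7:30184144-30186078) was at 75.9, 83.2 and 71.9 CPM in WT + AAV-GFP, at 79.8, 81.1 and 89.8 CPM in WT + AAV-PRDM16, at 40.3, 39.6 and 61.0 CPM in KO + AAV-GFP and at 55.8, 57.6 and 56.9 CPM in KO + AAV-PRDM16. All KO mice were below all WT mice (-0.63 ± 0.10, FDR 0.0145). Of the widely expressed forms, Cox7a2 fell as well (90.2 against 70.0 CPM, -0.37, FDR 0.0255) and Cox8a did not pass (290 against 258 CPM, -0.18, FDR 0.475).

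Cox5b (ENSMUSG00000061518, chr1:36691449-36693681), a peripheral subunit of complex IV, had the smallest p-value of that complex. It was at 324, 341 and 345 CPM and at 336, 330 and 370 CPM in the WT groups under AAV-GFP and AAV-PRDM16, against 212, 233 and 247 CPM and 277, 283 and 261 CPM in the KO groups. No KO mouse reached a WT mouse (-0.44 ± 0.07, FDR 0.0097). Cox5a (-0.35, FDR 0.0326) and Cox6b1 (-0.33, FDR 0.0354) also fell, while Cox4i1 (-0.23, FDR 0.133) and Cox6a1 (-0.31, FDR 0.0897) did not pass. Cox4i2, the isoform of lung and of hypoxia, was near 1 CPM and had the largest positive value (0.851 CPM in WT and 1.29 CPM in KO, 0.60, FDR 0.165). The testis isoform Cox6b2 was also under 1 CPM and not called (0.847 and 0.559 CPM, -0.65, FDR 0.197).

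In complex V, the called genes were some of the small subunits of the central stalk, the rotor ring and the membrane part. Atp5e (ENSMUSG00000016252, chr2:174461072-174464105), the epsilon subunit of the stalk, was at 45.5, 49.6 and 50.4 CPM in WT + AAV-GFP, at 56.8, 52.1 and 59.8 CPM in WT + AAV-PRDM16, at 31.9, 29.9 and 37.6 CPM in KO + AAV-GFP and at 37.1, 41.4 and 39.9 CPM in KO + AAV-PRDM16. Genotypes did not overlap (-0.53 ± 0.07, FDR 0.0084). Atp5d, the delta subunit beside it, was at 249, 247 and 243 CPM and 259, 256 and 273 CPM in the WT groups, against 158, 174 and 180 CPM and 190, 222 and 204 CPM in the KO groups. It fell by 26.1% without overlap (-0.44 ± 0.06, FDR 0.0095). Atp5g3, which encodes the c subunit of the rotor ring, was at 53.5, 52.8 and 51.3 CPM and 54.7, 55.9 and 56.3 CPM in WT, against 37.5, 41.0 and 40.6 CPM and 41.0, 45.6 and 37.7 CPM in KO. This gene too was lower in every KO mouse (-0.41 ± 0.06, FDR 0.0097). Atp5k (-0.37, FDR 0.0203) and Atp5j2 (-0.35, FDR 0.0424), subunits e and f of the membrane part, completed the set. The catalytic head did not pass, with Atp5b at 5196 CPM in WT and 4657 CPM in KO (-0.16, FDR 0.293) and Atp5a1 at 2701 and 2342 CPM (-0.21, FDR 0.205), and Atp5g1, a second gene for the c subunit, had a log2 fold change of 0.20 (FDR 0.832).

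**Figure D2:**
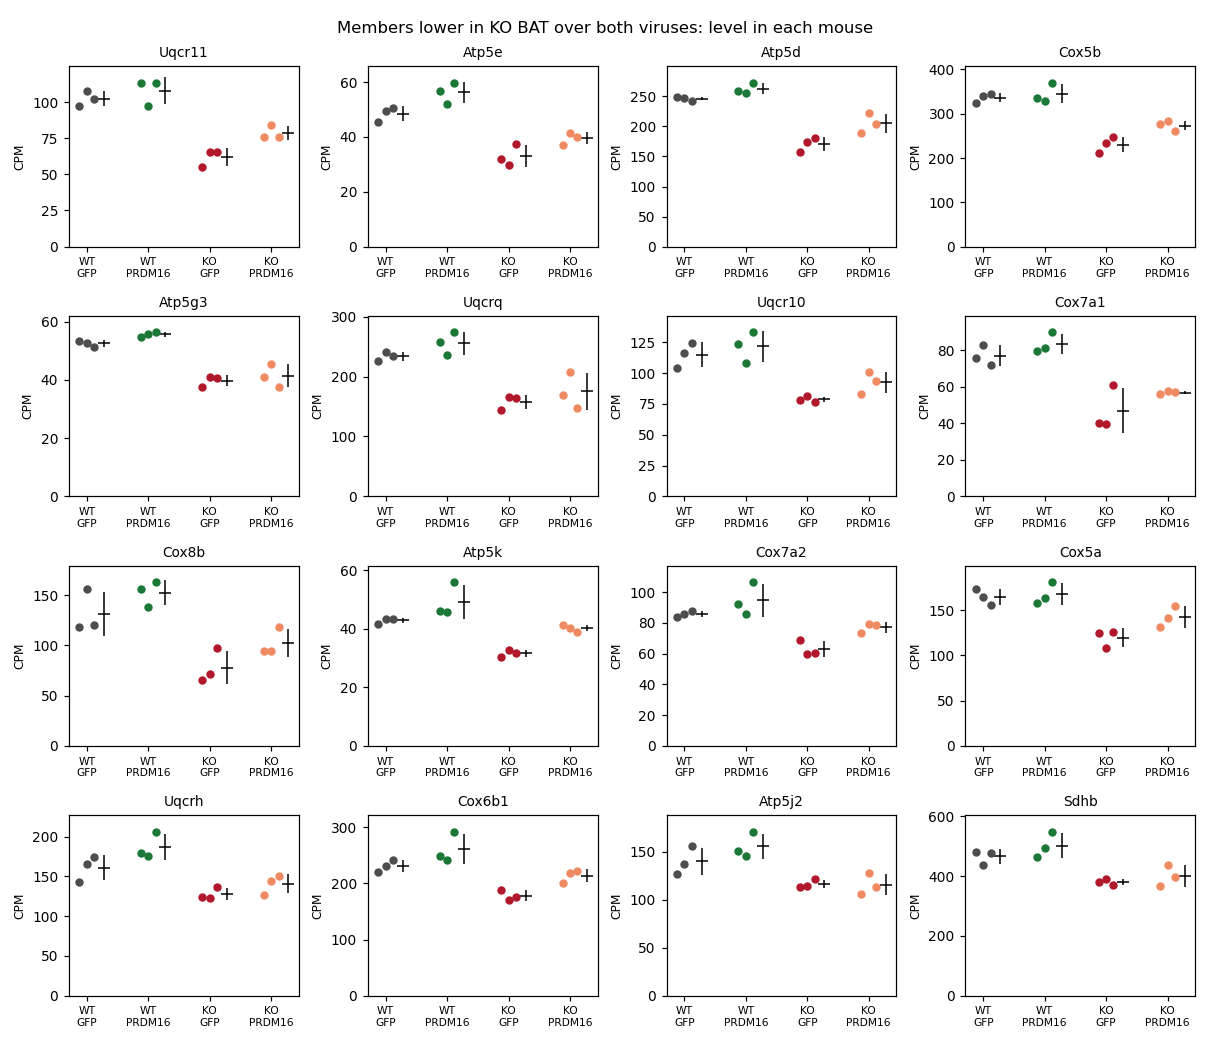
Level in TMM-scaled CPM (vertical axis, from 0) of the 16 members lower in KO BAT, by group (horizontal axis), with a point for each mouse and the mean ± SD of 3 mice beside it. In Uqcr11 the 6 KO points lie between 55.1 and 84.0 CPM, below the 6 WT points at 97.1 to 113 CPM.

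Promoter windows of 6 members are shown because they hold, or lack, letters of the factors known to drive respiratory genes: Sdhb and Uqcr11 as called members with such letters, Cycs as a textbook target of NRF1 that was not called, Cox7a1 and Cox8b as the called isoforms with the deepest falls, and Atp5k as a called member that also holds ERR letters. The windows run from 150 bases before to 30 bases after the start of the gene in RefSeq on GRCm38.p6, 5′ to 3′ along the gene. Capitals mark matches on either strand. The letters searched were GCGCATGC for the regulator NRF1. They were AAGGTCA for the estrogen-related receptors (ERR), and CCGGAAG for the ETS factors. For YY1 the search used AAGATGG, for the factor Sp1 it used GGGCGG, and for the TATA box it used TATAAA.
Sdhb (chr4:140961121-140961300, plus strand): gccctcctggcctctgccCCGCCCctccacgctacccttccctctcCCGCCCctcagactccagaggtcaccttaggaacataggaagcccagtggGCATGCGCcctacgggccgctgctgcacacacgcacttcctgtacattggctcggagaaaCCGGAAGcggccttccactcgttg
Uqcr11 (chr10:80406792-80406971, minus strand): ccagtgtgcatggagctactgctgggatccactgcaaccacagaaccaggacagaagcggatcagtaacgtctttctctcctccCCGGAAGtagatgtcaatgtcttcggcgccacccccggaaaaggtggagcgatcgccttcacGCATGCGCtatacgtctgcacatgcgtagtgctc
Cycs (chr6:50566540-50566719, minus strand): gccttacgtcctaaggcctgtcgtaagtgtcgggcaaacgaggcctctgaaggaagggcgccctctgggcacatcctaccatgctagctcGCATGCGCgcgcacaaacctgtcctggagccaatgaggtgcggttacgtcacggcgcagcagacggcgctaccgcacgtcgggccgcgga
Cox7a1 (chr7:30184021-30184200, plus strand): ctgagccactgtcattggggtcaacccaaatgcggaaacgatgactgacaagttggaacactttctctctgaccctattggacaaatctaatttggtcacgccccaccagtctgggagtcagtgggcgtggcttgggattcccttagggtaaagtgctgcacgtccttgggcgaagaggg
Cox8b (chr7:140900417-140900596, minus strand): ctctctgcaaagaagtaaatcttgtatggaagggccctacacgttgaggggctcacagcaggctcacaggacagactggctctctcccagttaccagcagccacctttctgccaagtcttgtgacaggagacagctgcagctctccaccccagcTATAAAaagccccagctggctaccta
Atp5k (chr5:108434370-108434549, minus strand): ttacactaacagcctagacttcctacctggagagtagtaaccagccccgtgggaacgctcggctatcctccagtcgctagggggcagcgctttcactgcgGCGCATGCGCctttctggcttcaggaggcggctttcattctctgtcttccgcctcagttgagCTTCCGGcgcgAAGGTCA
The Sdhb window held NRF1, ETS and Sp1 letters, Uqcr11 held NRF1 and ETS letters, and Atp5k held NRF1, ETS and ERR letters. Cycs held NRF1 letters, Cox7a1 held none of these letters, and Cox8b held only a TATA box. CCAAT, which is not marked, stood 2 times in the Cox7a1 window and 1 time each in those of Sdhb and Cycs, on either strand.

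Windows of 250 bases before to 50 after the start were found for 35 of the 49 member symbols and for 27025 genes in all. The latter were not limited to the 18899 genes tested in the AAV cohort, so the shares of all genes include genes not tested here. The NRF1 letters stood in 8 of the 35 members (22.9%) against 3.05% of all genes, the ETS letters in 12 (34.3%) against 9.93%, and the ERR letters in 5 (14.3%) against 5.38%. Letters for Sp1 were in 13 members (37.1% against 38.2%), for YY1 in 3 (8.57% against 7.28%), for the TATA box in 3 (8.57% against 15.7%), and CCAAT in 20 (57.1% against 41.1%). Of the 16 members called, 15 had a window, and the NRF1, ETS and ERR letters stood in 3, 6 and 3 of them. All letters were read on both strands, and motifs can overlap one another. A match is a description of letters only.

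CPEB2 is known to bind U-rich elements in 3′ untranslated regions. Of the 46 members tested in the AAV cohort, 8 had TTTTAT or TTTTAAT (DNA letters of the element) in the 3′ untranslated region (17.4%), against 8406 of 14194 protein-coding genes tested (59.2%). The members' regions are short, with a median of 180 bases against 1010, and per kb the elements numbered 0.794 in members and 1.29 in all. Among the 16 called members 2 had one (12.5%), Cox5a and Cox5b. Their sites, from 20 or 21 bases of GRCm38 with the element in capitals, are shown because these are the only called members that carry it.
Cox5a (chr9:57532335-57532354, plus strand): ggaaatgTTTTATttgaaca
Cox5b (chr1:36693502-36693521, plus strand): gttagaaTTTTATttttaaa
Cox5b (chr1:36693414-36693434, plus strand): tttttttTTTTAATatatata

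The called members were mostly short transcripts. Of the 16, 13 had a principal transcript under 1000 bases, with a median of 631.5 bases, against 14 of the 30 members that were tested and not called, with a median of 1038.5 bases. The median log2 fold change was -0.33 over the 27 members under 1000 bases and -0.19 over the 19 longer ones. Spearman's rho of log2 fold change and transcript length was 0.53 across the 46 members and 0.19 across all genes tested, as a description, since genes of the same libraries are not independent. After removal of the trend with GC content and length from each library, 5 members were called (0.286% of all genes were lower), Uqcr11, Uqcrq, Cox8b, Atp5d and Atp5e, while 41 of 46 were below 0 and the median was -0.17. The part of transcript length in the falls was not tested further.

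**Figure D3:**
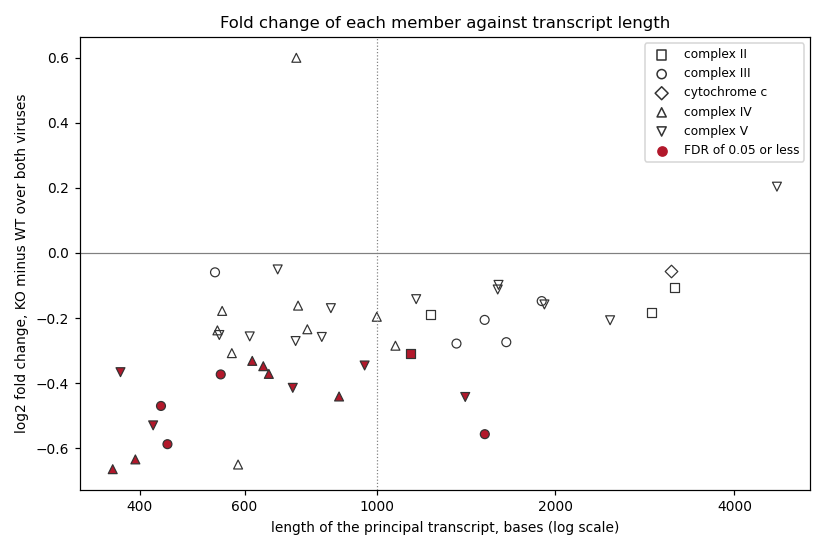
Log2 fold change of KO minus WT over both viruses (vertical axis) against the length of the principal transcript in bases (horizontal axis, log scale) for the 46 members tested, with a symbol for each complex and filled symbols at an FDR of 0.05 or less. Of the 16 filled symbols, 13 lie left of the dotted line at 1000 bases.

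Leaving out single libraries left 8 to 15 members called over both viruses. There were 8 without KO + AAV-PRDM16 mouse 1, 9 without WT + AAV-GFP mouse 2, WT + AAV-GFP mouse 3, WT + AAV-PRDM16 mouse 3 or KO + AAV-GFP mouse 2, and 10 without WT + AAV-PRDM16 mouse 1. Uqcr11, Uqcrq and Atp5e stayed called in all 19 settings tried at an FDR of 0.05, and Sdhb in 3. Reads of Uqcr11 and Cox5b can be shared with near-identical copies, since 10.9% and 25.9% of the 50-base stretches of their transcripts occur in another gene, so both counts are uncertain. Such stretches were found in 24 members and made up over 40% of Uqcrb, Cox7c, Atp5g2, Atp5h, Atp5l and the second Atp5o gene.

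Some partner genes outside the membership were also lower in KO BAT. They were not followed with the GC content and length trend removed. Of 40 assembly factors and partners, 36 were below 0 (48.4% of all genes), with a median log2 fold change of -0.23. At an FDR of 0.05, 7 fell (1.12% of all genes) and 0 rose. They were Sdhaf4 (-0.60, FDR 0.0342), which matures complex II, Uqcc2 (-0.51, FDR 0.0225), an assembly factor of complex III, Fmc1 (-0.86, FDR 0.0145), an assembly factor of complex V, Cox17 (-0.41, FDR 0.0339) and Coa6 (-0.51, FDR 0.0283), which serve copper delivery to complex IV, and Higd1a (-0.35, FDR 0.0476) and Higd2a (-0.37, FDR 0.0235), which associate with complexes III and IV. Of the 6 mitochondrial-genome subunits of complexes III to V, 0 were called by edgeR's quasi-likelihood test and 0 had an unadjusted p under 0.05, with a median of -0.06. Of 10 regulators 0 were called and 6 were below 0 (48.4% of all genes), with a median of -0.11. The values were -0.12 for Ppargc1a (the coactivator PGC-1alpha), -0.27 for Esrra (the receptor ERRalpha, FDR 0.140), 0.04 for Nrf1 and -0.13 for Tfam.

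Some markers of other cells moved beside these genes. The summed level of 5 macrophage markers was 44.3 to 98.9 CPM in WT + AAV-GFP and 32.7 to 42.0 CPM in WT + AAV-PRDM16. It was 116 to 282 CPM in KO + AAV-GFP and 54.2 to 74.8 CPM in KO + AAV-PRDM16. Of the 5, 2 rose at an FDR of 0.05 over both viruses. With RLE scaling in place of TMM, 213 of the 18899 genes tested were higher at that FDR. The 5 pericyte and smooth muscle markers summed to 355 to 444, 325 to 413, 488 to 564 and 437 to 577 CPM in the same order. Of these 5, 0 were called over both viruses, with a median log2 fold change of 0.32. None of either list was at 0 in any library. The 8 brown adipocyte markers summed to 3335 to 5496, 4946 to 6582, 3745 to 4233 and 3589 to 4611 CPM, with 1 of 8 lower at an FDR of 0.05 (1.12% of all genes). Of 5 white adipocyte markers 1 rose, and sums were 28.02 to 45.3, 11.8 to 61.0, 88.6 to 144 and 53.1 to 256 CPM. Their part in the members' falls was not tested. Of the T cell, B cell and endothelial markers none was called, with median log2 fold changes of 0.52, 0.45 and 0.42. Skeletal muscle markers were low, at 0.421 to 89.8 CPM summed over 10 genes in the 12 libraries, with up to 8 of the 10 at 0 in a library.

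With AAV-GFP alone, the same genotype difference called Uqcr11 only. It was at a mean of 62.1 CPM in KO and 102 CPM in WT (-0.72 ± 0.10, FDR 0.0326), and 0.0476% of all genes were lower at that threshold. Of 46 members 44 were below 0 (48.5% of all genes), the median was -0.26, and in 29 all KO + AAV-GFP mice lay below all WT + AAV-GFP mice (6.88% of all genes). Medians were -0.18, -0.23, -0.34 and -0.22 in complexes II, III, IV and V. The next smallest p-values in complexes IV and V were those of Cox5b (-0.55, FDR 0.0943) and Atp5d (-0.53, FDR 0.0948), and Cox4i2 stood on the higher side at 0.47. The call of Uqcr11 was lost in 11 of the 12 fits that left out a library, and held without WT + AAV-PRDM16 mouse 2. Without KO + AAV-GFP mouse 3, Cox7a1 was the member called in its place. DESeq2 called 14 members lower (0.625% of all genes) and limma-voom 3 (0.0529%), which were Uqcr11, Cox5b and Cox7a1.

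With AAV-PRDM16, 0 members were called by edgeR's quasi-likelihood test, where 0.00529% of all genes were lower at an FDR of 0.05. An unadjusted p under 0.05 was reached by 24 members on the lower side (6.80% of all genes), and DESeq2 called 14 members lower (1.66% of all genes) and limma-voom 15 (1.71%). Again 44 of 46 were below 0 (48.5% of all genes), with a median of -0.24, and 22 members did not overlap (11.2% of all genes). Uqcr11 averaged 78.5 CPM in KO and 108 CPM in WT (-0.46 ± 0.10, FDR 0.115), Cox7a1 56.8 and 83.5 CPM (-0.56, FDR 0.152) and Atp5e 39.5 and 56.2 CPM (-0.51, FDR 0.0909). On the higher side stood Atp5g1 at 0.52, not called. Cox4i2 was the only member with an unadjusted p under 0.05 on the higher side, at 0.794 CPM in WT and 1.32 CPM in KO (0.73, FDR 0.328). Both genotype comparisons entered the contrast over both viruses and are not further evidence for it.

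No member changed with AAV-PRDM16 at an FDR of 0.05 by edgeR's quasi-likelihood test, in either genotype, over both genotypes or in the interaction. In WT 1 member had an unadjusted p under 0.05, Atp5k, which averaged 42.9 CPM with GFP and 49.3 CPM with PRDM16 (0.20, FDR 0.683). Of all genes, 0% were higher at an FDR of 0.05 and 2.10% at an unadjusted p under 0.05. Above 0 were 43 of 46 members (47.9% of all genes), the median was 0.09, and 8 members did not overlap (6.39%). The smallest p-values in complexes III and IV were those of Uqcrh at 0.22 and Cox6b1 at 0.18, and on the lower side Cox4i2 stood at -0.19 and Atp5g2 at -0.09, none of them called. DESeq2 and limma-voom called 0 members in WT.

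In KO BAT, 10 members had an unadjusted p under 0.05 on the higher side with AAV-PRDM16, where 1.31% of all genes did and 0% passed an FDR of 0.05. Atp5k was at 30.3, 32.8 and 31.7 CPM in KO + AAV-GFP and at 41.3, 40.4 and 39.1 CPM in KO + AAV-PRDM16, without overlap (0.35 ± 0.09, FDR 0.315). Uqcr11 averaged 62.1 and 78.5 CPM, also without overlap (0.34 ± 0.10, FDR 0.388), and Cox7a2 62.8 and 77.2 CPM (0.30 ± 0.10, FDR 0.480). On the lower side the smallest p-values gave only Uqcrc2 at -0.05 and Atp5l at -0.04. Complex IV had the highest median, 0.25, with 15 of 15 members above 0, against 0.04 in complex II, 0.01 in complex III and 0.10 in complex V. Over all complexes 35 of 46 members were above 0 (48.5% of all genes), the median was 0.13 and 8 members did not overlap (3.38%). With the GC content and length trend removed, the median was 0.05 and 29 of 46 members were above 0. DESeq2 called 1 member higher, Atp5k (0.101% of all genes), and limma-voom 0. Macrophage and T cell markers had lower values with AAV-PRDM16 in the same mice, with median log2 fold changes of -1.25 and -3.24. The T cell markers were low, summing to 3.56 to 14.7 CPM in KO + AAV-GFP and 0.515 to 1.52 CPM in KO + AAV-PRDM16. Of both lists 0 were called at an FDR of 0.05, and their part was not tested.

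Over both genotypes, 10 members had an unadjusted p under 0.05 on the higher side (2.07% of all genes, with 0% at an FDR of 0.05) and 43 of 46 were above 0 (48.4% of all genes). Atp5k again had the smallest p, at 37.3 CPM with GFP and 44.8 CPM with PRDM16 (0.27 ± 0.07, FDR 0.0851), followed in complexes IV and III by Cox6b1 (0.22) and Uqcr11 (0.21). DESeq2 called 2 members higher, Atp5k and Cox6b1 (0.217% of all genes), and limma-voom 0. In the interaction of genotype and virus, 0 members had an unadjusted p under 0.05 in either direction, where 1.59% and 1.60% of all genes did and 0% and 0% passed an FDR of 0.05, and DESeq2 and limma-voom called 0 members. A genotype difference that depends on the virus was therefore not detectable with 3 mice a group. The smallest p-values belonged to Atp5g2 (0.35 ± 0.16), Uqcr11 (0.26 ± 0.14) and Cox5b (0.21) above 0, and to Uqcrc2 (-0.14), Cox4i1 (-0.01) and Atp5j2 (-0.16) below 0.

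Compared directly, KO + AAV-PRDM16 against WT + AAV-GFP gave 0 members at an FDR of 0.05 by edgeR's quasi-likelihood test (0.00529% of all genes were lower), 12 lower at an unadjusted p under 0.05 (4.42% of all genes), 1 by DESeq2 (Atp5g3, with 0.440% of all genes lower) and 0 by limma-voom. Below 0 were 42 of 46 members (52.6% of all genes), the median was -0.15, and 16 members lay apart on the lower side (7.09%). Atp5g3 averaged 52.5 CPM in WT + AAV-GFP, against 41.4 CPM in KO + AAV-PRDM16 (-0.34 ± 0.09, FDR 0.390), Uqcr11 had a value of -0.38 and Cox5b of -0.30, while Cox4i2 stood at 0.53 and Atp5g1 at 0.20. Among the 16 members called over both viruses, the mean of KO + AAV-PRDM16 lay between those of KO + AAV-GFP and WT + AAV-GFP in 15. In 8 of the 16 all KO + AAV-PRDM16 mice were above all KO + AAV-GFP mice, and in 11 they were still below all WT + AAV-GFP mice. All 4 groups entered the call of these genes and the comparisons share control mice, so these counts describe the order only.

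For the isoform pairs of complex IV, the ratio of the paired counts was followed in each mouse. The log2 ratio of Cox8b to Cox8a counts (prior count of 2, not per length) was -1.25, -0.88 and -1.26 in WT + AAV-GFP, -0.95, -0.94 and -0.95 in WT + AAV-PRDM16, -2.07, -1.51 and -1.09 in KO + AAV-GFP and -1.33, -1.41 and -1.65 in KO + AAV-PRDM16. KO mice were lower apart from KO + AAV-GFP mouse 3, which lay among the WT mice. The ratio of Cox7a1 to Cox7a2 was -0.14, -0.04 and -0.29 in WT + AAV-GFP, -0.21, -0.08 and -0.25 in WT + AAV-PRDM16, -0.77, -0.59 and 0.02 in KO + AAV-GFP and -0.39, -0.46 and -0.47 in KO + AAV-PRDM16. The same mouse was again the exception, here above all others. Cox4i2 stood at -9.50 and Cox6b2 at -8.14 against Cox4i1 and Cox6b1 in WT + AAV-GFP, and at -8.88 and -8.68 in KO + AAV-GFP, so Cox4i1 and Cox6b1 made up nearly all counts of their pairs.

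**Figure D4:**
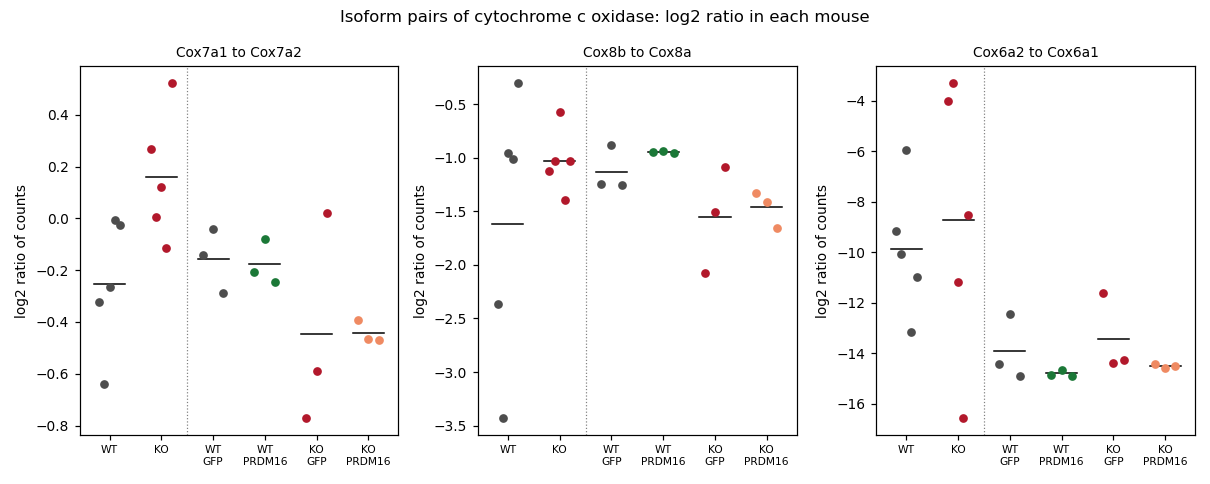
Log2 ratio of counts of 3 isoform pairs of complex IV (vertical axis, each panel with its own range) in the 6 groups (horizontal axis, untreated mice left of the dotted line), with a point for each mouse and a bar at the group mean. In Cox8b to Cox8a, untreated WT mice 1 and 2 lie lowest at -2.37 and -3.43. Cox6a2 had 0 counts in several libraries, so its lowest ratios follow the prior count.

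In untreated BAT no member differed between KO and WT at an FDR of 0.05 by edgeR's quasi-likelihood test, and 0% of all 17869 genes tested passed in either direction (0% higher and 0% lower). DESeq2 and limma-voom also called 0 members. Atp5g1 alone had an unadjusted p under 0.05 on the higher side (4.99% of all genes were higher and 10.9% lower at that p). At the study's own thresholds (2-fold or more, FDR up to 0.5) Atp5g1 and Cox6a2 passed, as did 6.04% of all genes on the higher side. Of 47 members 40 were above 0 (51.8% of all genes), with a median of 0.49 against 0.04 over all genes. Across all genes tested, Spearman's rho of log2 fold change was 0.58 with GC content and -0.30 with transcript length, as a description. By complex the medians were 0.44 in II, 0.60 in III, 0.55 in IV and 0.42 in V, and Cycs was at -0.14. No member had KO and WT libraries that did not overlap. The smallest p-values by complex and direction were those of Cyc1 (0.66), Cox6a1 (0.96) and Atp5g1 above 0, and of Uqcrc2 (-0.30), Cox7b (-0.02) and Atp5f1 (-0.41) below 0. Of these, Cyc1 turned to -0.24, Cox6a1 to -0.12 and Atp5f1 to 0.03 with the GC content and length trend removed, and Cox7b had the opposite sign in 11 of 20 alternatives. The pericyte and smooth muscle markers summed to 417 to 502 CPM in WT and 187 to 408 CPM in KO, and the macrophage markers to 33.1 to 286 and 44.1 to 363 CPM, with none called, and their part was not tested.

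The spread between untreated mice was wide. Uqcr11 was at 96.8, 76.5, 367, 217 and 367 CPM in WT and at 202, 197, 517, 379 and 623 CPM in KO. WT mice 1 and 2 were the lowest and the other WT mice lay within the KO range (0.77 ± 0.49, FDR 0.400). Cox8b ran at 54.1, 29.0, 520, 307 and 724 CPM in WT and 302, 256, 899, 490 and 970 CPM in KO, with the same mice lowest (0.84 ± 0.74, FDR 0.530). Sdha went the other way, at 3232, 3187, 1371, 1663 and 2461 CPM in WT and 2241, 611, 1607, 1479 and 963 CPM in KO. Here WT mice 1 and 2 were the highest (-0.79 ± 0.38, FDR 0.322). Sdhb was at 408, 395, 779, 540 and 733 CPM in WT and 473, 498, 1141, 1080 and 1782 CPM in KO (0.80 ± 0.39, FDR 0.324), and WT mice 1 and 2 were again the lowest.

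**Figure D5:**
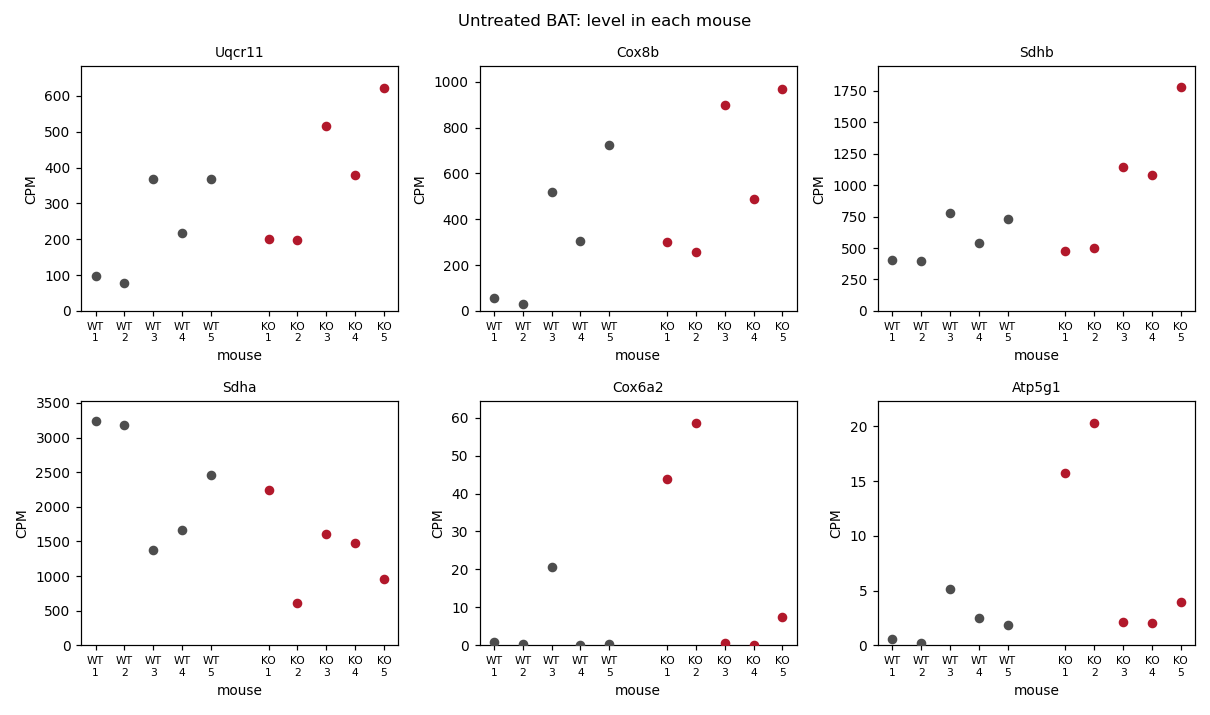
Level in TMM-scaled CPM (vertical axis, from 0) of 6 members in each untreated mouse (horizontal axis), with a point for each mouse. WT mice 1 and 2 are lowest in Uqcr11, Cox8b and Sdhb and highest in Sdha at 3232 and 3187 CPM, and KO mice 1 and 2 are highest in Cox6a2 and Atp5g1.

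The untreated median depended on which mice were kept. It was 0.16 with 35 of 47 members above 0 without WT mice 1 and 2, 0.28 without those and the mouse labelled KO 1, 0.13 with a covariate for Y-linked transcripts and 0.12 once GC content and length trends were taken out. Leaving out single mice gave 0.31 without WT mouse 1, 0.32 without WT mouse 2 and 0.31 without KO mouse 5 at the low end, and 0.71 without WT mouse 5 at the high end. The 16 members lower over both viruses had untreated values from 0.41 to 0.95, all 16 above 0 and none called. The cohorts differ in age, virus and food, and Y-linked transcripts were lacking in untreated libraries only. The tables of the cohorts were scaled separately, and the difference between their genotype effects was not tested.

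Cox6a2 and Atp5g1 followed a few mice. Cox6a2, the muscle isoform, was at 0.745, 0.460, 20.6, 0.0545 and 0.450 CPM in WT and at 43.7, 58.5, 0.668, 0 and 7.52 CPM in KO (2.32 ± 1.63, FDR 0.442). Atp5g1 was at 0.578, 0.248, 5.10, 2.49 and 1.84 CPM in WT and at 15.7, 20.3, 2.14, 2.01 and 3.9965 CPM in KO (2.11 ± 0.84, FDR 0.305). Both were highest in KO mice 1 and 2, and WT mouse 3 was the highest of the WT mice. The summed level of 10 skeletal muscle markers, none at 0 in any untreated library, was 163, 167, 3170, 14.6 and 52.9 CPM in WT mice 1 to 5 and 5597, 6416, 118, 7.96 and 1119 CPM in KO mice 1 to 5. It was highest in the same mice, and its part in the values of Cox6a2 and Atp5g1 was not tested.

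The partner genes in untreated BAT gave 0 calls by edgeR's quasi-likelihood test. Of the 40 assembly factors and partners, 2 were higher and 4 lower at an unadjusted p under 0.05, with a median of 0.19. Of all genes, 4.99% were higher and 10.9% lower at that p. The 6 mitochondrial-genome subunits were all below 0 with a median of -0.30, and 1 had an unadjusted p under 0.05. Of the 10 regulators 4 were lower at that p, with a median of -0.58, among them Tfam, which packages and transcribes mitochondrial DNA, at a mean of 28.6 CPM in WT and 14.9 CPM in KO (-0.94 ± 0.27, FDR 0.305). Esrra was at 0.52, Nrf1 at 0.24 and Ppargc1a at -0.65 on the log2 scale, none of them called.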

How the data were processed

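The authors made mRNA libraries from the BAT of 22 mice, 1 library a mouse, for short-read sequencing. The authors deposited a table of raw counts of reads per Ensembl gene for each cohort, with no normalization. The submitters' processing notes name bcl2fastq 2.20, Trimmomatic 0.36, HISAT2 and GRCm38.p6. The counting tool, its handling of strand and the annotation release are not given in the sources used here, so overlapping and antisense genes and near-identical copies are uncertain. Groups came from the sample labels. Symbols and transcript lengths came from the GENCODE annotation of GRCm38, which named 55227 of 55487 identifiers. Promoters came from RefSeq.

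Counts were filtered by filterByExpr, scaled by TMM and compared in edgeR 4.0.16 (R 4.3.3) by its two-sided quasi-likelihood test. P-values were adjusted by Benjamini-Hochberg over all genes tested, 17869 of the untreated table and 18899 of the AAV table. The AAV fit held all 12 libraries and shared 1 estimate of the spread. A gene was called at an FDR of 0.05. The members, lists and comparisons were chosen with earlier results of these data known, so lists are given by counts and medians without a test. Named in the text were all complex II genes, Cyc1, Cycs, the isoform pairs, the members called in a comparison (where over 6, those with the smallest p), the smallest p per complex and direction, the highest and lowest level per kb, and 4 regulators. Cox5a, Uqcr10, Atp5j2, Atp5j, Atp5l, Atp5a1 and the genes with shared stretches were named after their values were seen. The limit of 3 counts set beside a count of 0 covers counting error alone. No 2 libraries of a group agreed within counting noise (smallest median chi-square per gene 11.6 and 5.13). Alternatives were RLE scaling, no filter, DESeq2 1.42.0, limma-voom (limma 3.58.1), removal of the GC content and length trend (splines with 4 degrees of freedom), a replicate block, other prior counts (0.5 and 5), the study's thresholds and leaving out libraries. The fit without WT mice 1 and 2 and the mouse labelled KO 1 was chosen after seeing the data. The tests were tested on simulated data.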

Additional observations from a re-analysis of the deposited data

Results flagged for a closer look

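In 94 groups of 5 untreated mice, 1 for each of the 47 members tested there and each genotype, the highest or lowest mouse was compared with its nearest neighbour by Dixon's ratio, whose critical value for 5 samples is 0.71 and which chance passes in about 1 of 20 groups. In 3 groups the ratio was above it. Cycs in WT mouse 5 was at 1082 CPM, with the next WT mouse at 708 CPM. Atp5f1, the peripheral stalk subunit b of complex V, was at 679 CPM in the same mouse, with the next at 493 CPM. Cox6a2 was at 20.6 CPM in WT mouse 3, with the next at 0.745 CPM, and that mouse also had the highest summed skeletal muscle markers of the WT mice. None of the 3 genes was called in a comparison at an FDR of 0.05. Genotypes that did not overlap were sought in opposite directions among the comparisons in untreated BAT, with AAV-GFP and with AAV-PRDM16. The same was done for the 2 viruses, between WT and KO. In both searches 0 members were found.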

How the results depend on the processing

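Under the alternatives, no member called at an FDR of 0.05 reversed its direction. Of 160 values of named members that were not called, 53 changed sign under at least 1 alternative, and the members' median in the interaction ran from -0.01 to 0.08. Of counts of members called, 152 of 186 stayed within 1.5 times the value reported, as did 219 of 324 single calls on their side of the threshold. Where the value reported was 0, staying meant 0 again, which makes the pooled figure high. Over both viruses, 6 of 12 counts stayed on leaving out a library and 4 of 8 under other settings. With AAV-GFP these were 2 of 12 and 2 of 9. Over both viruses (16 called), the count was 15 with RLE scaling, 13 without the filter, 24 with DESeq2, 25 with limma-voom, 5 with the GC content and length trend removed, 0 at the study's thresholds, and 8 to 15 leaving out each library. With AAV-GFP (1 called), it was 14 with DESeq2, 3 with limma-voom, 0 with the GC content and length trend removed, 0 with only the compared groups fitted, 0 at the study's thresholds, and 0 to 1 leaving out each library. With AAV-PRDM16 (0 called), it was 14 with DESeq2, 15 with limma-voom and 0 to 1 leaving out each library, with 1 without KO + AAV-GFP mouse 3. DESeq2 called 1 member with PRDM16 in KO, 1 in KO + AAV-PRDM16 against WT + AAV-GFP and 2 with the virus over both genotypes. In untreated BAT the count was 2 at the study's thresholds and 0 under every other alternative run. The cause of these changes was not tested.

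Once GC content and length trends were taken out, the members' median log2 fold change was -0.16 with AAV-GFP, -0.16 with AAV-PRDM16 and -0.17 over both viruses, and it was -0.17, -0.16 and -0.17 with the replicate block as well. The mean log2 ratio of Cox6a2 to Cox6a1 with a prior count of 0.5 was -15.34 in WT + AAV-GFP, -16.79 in WT + AAV-PRDM16 and -16.50 in KO + AAV-PRDM16, and with a prior count of 5 it was -13.47 in WT + AAV-PRDM16 and -13.18 in KO + AAV-PRDM16.

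Mice with the same replicate number did not deviate together (correlations of -0.29 to 0.11 in the untreated and -0.09 to 0.15 in the AAV cohort). These values cannot show how the mice were matched, and pairing by litter was not tested. With the replicate block, 15 members were called over both viruses and 0 with AAV-GFP, and with the block and the GC content and length trend removed 4 and 0. Depth limits Cox4i2, Cox6b2 and, in the AAV cohort, Atp5g1 and Cox6a2, all near or under 1 CPM.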

Other observations

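Beside the 16 members called, the members just outside the threshold over both viruses were Atp5l (FDR 0.0565), Uqcrc1 (FDR 0.0642) and Atp5j (FDR 0.0683), and those just inside were Sdhb (FDR 0.0488) and Atp5j2 (FDR 0.0424).

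The share of counts by complex gave another view of the same libraries. Complex IV genes took 0.32% ± 0.015 of all counts in WT + AAV-GFP, 0.33% ± 0.019 in WT + AAV-PRDM16, 0.26% ± 0.039 in KO + AAV-GFP and 0.29% ± 0.019 in KO + AAV-PRDM16 (SD, n = 3). Complex V genes took 0.98% ± 0.019, 0.98% ± 0.013, 0.88% ± 0.085 and 0.90% ± 0.065 in the same order. Complex II genes took 0.38% ± 0.012, 0.37% ± 0.0047, 0.34% ± 0.0046 and 0.33% ± 0.026. Genotypes overlapped in complex IV, where KO + AAV-GFP mouse 3 at 0.306% lay above WT + AAV-GFP mouse 1 at 0.305%. KO + AAV-PRDM16 mouse 3 at 0.312% likewise lay above WT + AAV-PRDM16 mouse 2 at 0.311%. In complex V, KO + AAV-GFP mouse 3 at 0.968% lay above WT + AAV-GFP mouse 3 at 0.957%. Complex II shares did not overlap. KO + AAV-GFP mouse 3 had the largest TMM factor of the AAV cohort, 1.2052, which the shares do not use. In untreated BAT, complex IV genes took 0.52% ± 0.24 in WT and 0.88% ± 0.34 in KO (SD, n = 5), with ranges of 0.26 to 0.77% and 0.50 to 1.33% that overlapped. No test was run on these shares.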
